A study of Homo sapiens with 8 samples.

Results

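Senescent IMR90 cells depleted of METTL3 were compared with control cells by nascent transcription, over all gene rows of the count table outside ribosomal RNA. These rows numbered 27924 of 27945, and 12823 of them had enough counts to be tested. IMR90 cells are primary human lung embryonic fibroblasts, and all groups carried ER:RAS, an oncogenic H-RAS fused to an estrogen receptor domain that 4-hydroxytamoxifen (4-OHT) switches on. The control group is given as wild type, with no shRNA named. The senescent groups were treated with 100 nM 4-OHT, harvested on day 6, and carried shMETTL3 or shControl, each delivered by lentivirus and selected with puromycin. Senescent shControl cells serve here to define the senescence program, and the remaining group, senescent shMETTL14, entered the filter, the scaling and the shared estimate of spread and is not compared. Each group had 2 libraries. METTL3 was targeted by a single hairpin in these libraries. 4-OHT, infection and selection go together in every comparison with control cells, so their effects cannot be told apart, and in bulk cells a smaller number of expressing cells cannot be told apart from less RNA per cell.

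In oncogene-induced senescence a fibroblast leaves the cell cycle for good under sustained RAS signaling. The cells keep high levels of cyclin-dependent kinase inhibitors, shut down the genes of DNA replication and mitosis, lose lamin B1, and secrete a mixture of chemokines, cytokines, growth factors and proteases, the senescence-associated secretory phenotype (SASP). NF-kappaB, C/EBP and AP-1 factors are the best known activators of the secretory genes. METTL3 carries out the methyl transfer in the enzyme complex that places N6-methyladenosine on RNA, and METTL14 is its partner. The fastGRO-seq assay lets polymerases finish a short stretch of labeled RNA in nuclei taken from the cells, so its reads follow transcription in progress and not stored mRNA, in introns as well as exons.

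METTL3 itself had 80 and 78 counts in control cells, 77 and 47 counts in shControl cells, and 16 and 19 in shMETTL3 cells. The shMETTL3 libraries lay below all 4 others. METTL3 transcription fell by 2.00 ± 0.30 (SE) on the log2 scale against control (adjusted p = 4.89e-06) and by 2.04 ± 0.31 against shControl cells (adjusted p = 1.79e-05). Of 8 members of the methyltransferase complex and its adaptors, 1 was higher and 2 were lower than in control cells, against 20.1% each way over all genes tested, the other lower one being RBM15B, an RNA-binding adaptor (log2 -1.57, adjusted p = 5.19e-05). The higher one was the adaptor VIRMA (log2 0.52, adjusted p = 0.012), a call lost in DESeq2, under scaling without ribosomal RNA, and without control replicate 1, control replicate 2 or shMETTL3 replicate 2. METTL14 had 41 and 48 counts against 60 and 55 in control cells (log2 -0.20, adjusted p = 0.566).

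The total count was 14897360 to 20306299 per library, but 86.2% to 92.5% of it lay in 21 ribosomal RNA rows, leaving 1513930 to 2048475 counts elsewhere. The shMETTL3 replicates differed from each other more than the other pairs did. Their variance over genes was 7.15 times the sampling noise, against 1.97 in control and 1.72 in shControl libraries, so the main counts are also given without each of them. The fit shares its estimate of spread over the groups, so SE and adjusted p for shMETTL3 may be too small. Reads were not separated by strand, since in 89 of 89 testable nested pairs on opposite strands the outer gene had at least the counts of the inner one. The summed normalized counts of 14 fibroblast markers lay between 22999 and 24595 in control libraries, 11206 and 13039 with shControl and 11148 and 13456 with shMETTL3. Of the 13 that were tested, 10 were lower with shMETTL3 than in control. Epithelial markers summed to at most 4 counts in each control and shMETTL3 library. Endothelial markers summed to 115 and 133 counts in control against 55 and 75 with shMETTL3, and blood cell markers to 18 and 21 against 46 and 33. The part of these shifts in the results was not tested.

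Senescent shMETTL3 cells differed from control cells at 5162 genes. Transcription was higher at 2579 genes (20.1% of those tested) and lower at 2583 (20.1%), at an adjusted p below 0.05 in edgeR's quasi-likelihood test. The median log2 change was 1.04 among the higher genes and -1.20 among the lower ones, and 1339 and 1592 genes changed by at least 1 on the log2 scale. At 5141 of the 5162 genes the control and shMETTL3 libraries did not overlap. With 2 libraries a group, called genes mostly separate because of how they are called, so this count adds no support of its own. A fit of control and shMETTL3 libraries alone gave 2326 higher and 2174 lower genes. Without shMETTL3 replicate 1, the counts were 2897 higher and 3078 lower, and without replicate 2 they were 2213 and 2139. The split between directions depended on scaling. When libraries were scaled by their counts outside ribosomal RNA, the median log2 change over all genes was -0.26 instead of -0.05, and 1886 genes were higher against 3661 lower, so 34.0% of calls were upward instead of 50%.

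The senescence program was defined as the genes that changed between control and senescent shControl cells. It held 1695 higher genes (13.2%) and 1702 lower genes (13.3%). In a direct comparison, 1574 genes were higher (12.3%) and 1418 lower (11.1%) in shMETTL3 than in shControl cells. With library size alone, ribosomal RNA included, these numbers were 752 and 5015 for shControl against control and 5287 and 342 in the direct comparison. Without shControl replicate 1 the direct comparison gave 885 and 837, and without replicate 2 it gave 769 and 707. The comparisons share libraries, so each gene was placed by its 3 calls and no correlation between comparisons is given. A program gene stood when it changed the same way with shMETTL3 and was not shown to differ from shControl. It stood in part when the change was smaller than with shControl, went further when it was larger, returned when it differed from shControl and was not called against control, and reversed when it was called the other way. The rest were unresolved, being called in neither of the other comparisons. Standing and returning rest in part on a test that missed its threshold, which does not show that levels were equal. The counts of list members given from here on stand against these shares of all tested genes, 20.1% each way with shMETTL3, 13.2% and 13.3% with shControl, and 12.3% and 11.1% in the direct comparison.

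By TMM scaling most of the program was present in METTL3-depleted cells. Of the 1695 higher genes, 1190 (70.2%) were also higher with shMETTL3. Of these, 769 stood, 142 stood in part and 279 went further, while 247 returned, 25 reversed and 233 were unresolved. The number returned depended on the setting. It was 99 by DESeq2 and also fell when either shControl library was left out. The 769 standing genes had median log2 changes of 1.09 with shControl and 1.11 with shMETTL3. The 142 that stood in part had a median of 2.96 with shControl and 1.85 with shMETTL3, and kept a median of 41.0% of their rise in normalized counts. The 279 that went further moved from 1.16 to 2.05, and the 247 that returned moved from 0.81 to 0.01. The medians of the classes, here and on the lower side, come from the same values that sorted the genes. They describe the classes and are no test of them.

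On the lower side 1207 of 1702 genes (70.9%) were also lower with shMETTL3. Among them 900 stood, 36 stood in part and 271 went further, whereas 203 returned, 45 reversed and 247 were unresolved. The genes that went further had a median log2 change of -1.28 with shControl and -2.58 with shMETTL3, and the standing ones -1.18 and -1.27. Genes that went further outnumbered those held in part by 271 to 36, where on the higher side the numbers were 279 and 142. With library size alone the lower side turned, with 151 further and 198 in part, and only 34.1% of lower program genes went the same way while 37.0% returned. With each comparison fitted on its own groups only, 57.1% of higher and 61.2% of lower program genes went the same way. The same-way share was 62.8% and 65.3% for higher and lower genes without shMETTL3 replicate 1, and 60.1% and 60.5% without replicate 2.

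**Figure D1:**
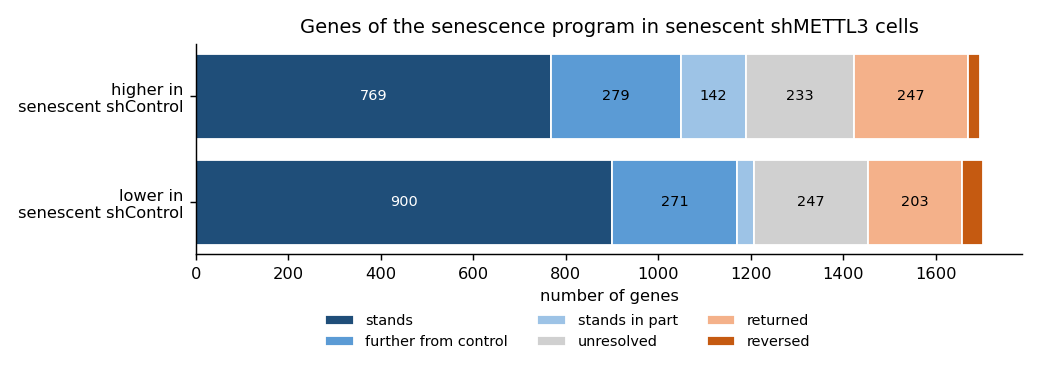
Numbers of program genes by fate in senescent shMETTL3 cells, for the 1695 genes higher and the 1702 genes lower in senescent shControl than in control cells. Standing genes are the largest class on both sides, with 769 and 900 genes.

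Chemokines, the secreted proteins that draw neutrophils and other leukocytes, had lower counts with shMETTL3 than with shControl. By the main fit 6 of them were still above control. Of 19 chemokine genes 10 were tested. With the filter and fit on control and shMETTL3 libraries alone 6 were tested, with 4 higher, 1 lower and a median log2 change of 4.01. The other 4 passed only through groups where they were high, which favors a fall from shControl. Of the 10, 9 were higher and 1 lower in shControl than in control cells, and 6 were higher and 1 lower with shMETTL3. By edgeR 10 and by DESeq2 7 were lower with shMETTL3 than with shControl. No chemokine was higher in that last comparison by edgeR, with 0 at an unadjusted p below 0.05 and 0 by DESeq2. Their median change from control was 6.49 on the log2 scale with shControl and 3.39 with shMETTL3, against -0.05 over all genes tested with shMETTL3. None stood whole: 6 stood in part, 3 were placed as returned and 1 went further. Among those placed as returned, CXCL6 had 3 and 0 counts in control and 8 and 2 with shMETTL3, and CCL3 0 and 0 against 2 and 0. At such counts a return could not be shown.

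CXCL8, which encodes interleukin 8, had 38 and 41 counts in control, 4396 and 4004 with shControl, and 632 and 905 with shMETTL3. The 3 groups did not overlap. It was 4.44 ± 0.20 higher than control on the log2 scale with shMETTL3 (adjusted p = 1e-15), against 7.12 with shControl, and kept 15% of the rise. CXCL5, another neutrophil attractant, had 6 and 5 counts in control, 2402 and 2164 with shControl and 132 and 164 with shMETTL3. It kept 5.37% of its rise and was still 4.88 ± 0.38 above control (adjusted p = 5.27e-11). CXCL1 had 11 and 9, 844 and 746, and 119 and 91 counts in the same order of groups. Its rise over control was 3.55 ± 0.29 (adjusted p = 1.19e-10), with 10.5% left. CXCL8, CXCL5 and CXCL1 thus had the same order of groups, with shMETTL3 between control and shControl in every library. The T cell and dendritic cell attractant CCL20 went from 0 and 1 counts in control to 30 and 37 with shMETTL3, a ratio of 75.3 with an exact 95% counting interval of 13.1 to 3020, and to 104 and 99 with shControl. CXCL3 had 0 and 3 counts in control and 21 and 8 with shMETTL3, a ratio of 10.9 (3.37 to 55.7), against 284 and 254 with shControl. CCL2, the monocyte attractant, went the other way. It had 66 and 56 counts in control, 23 and 28 with shControl and 14 and 6 with shMETTL3, a fall of 2.42 ± 0.36 on the log2 scale (adjusted p = 4.39e-06).

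The promoters of these chemokines are shown because the secretory genes are known targets of NF-kappaB and AP-1, and TNFSF15, a cytokine that stood, is shown beside them. Each line gives the 150 bases before the transcription start, 5′ to 3′ on the gene's strand, from RefSeq on GRCh38.p14, a later build than the hg19 of the counts. Capitals mark matches to GGNNTTTCC, the NF-kappaB letters searched here, or TGANTCA, the AP-1 letters, on either strand. The windows lie at chr4:73740419-73740568 on the plus strand for CXCL8, chr4:73998678-73998827 on the minus strand for CXCL5, chr4:73869243-73869392 on the plus strand for CXCL1 and chr9:114792531-114792680 on the minus strand for TNFSF15.
CXCL8: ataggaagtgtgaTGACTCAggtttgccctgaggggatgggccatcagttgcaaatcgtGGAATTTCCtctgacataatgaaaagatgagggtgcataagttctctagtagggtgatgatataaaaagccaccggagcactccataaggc
CXCL5: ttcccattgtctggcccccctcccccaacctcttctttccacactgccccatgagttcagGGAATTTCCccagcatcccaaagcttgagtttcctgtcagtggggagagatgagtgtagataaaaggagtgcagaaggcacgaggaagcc
CXCL1: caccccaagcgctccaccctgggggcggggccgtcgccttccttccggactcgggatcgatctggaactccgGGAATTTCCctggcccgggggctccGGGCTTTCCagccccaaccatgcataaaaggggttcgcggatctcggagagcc
TNFSF15: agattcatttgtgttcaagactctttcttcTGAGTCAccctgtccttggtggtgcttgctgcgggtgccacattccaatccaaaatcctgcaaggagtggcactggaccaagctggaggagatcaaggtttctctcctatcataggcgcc

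The 3 chemokine windows each hold GGAATTTCC, at -91 in CXCL8, -90 in CXCL5 and -78 in CXCL1, counted back from the start, and CXCL1 holds a second match at -53. CXCL8 holds an AP-1 match at -137 as well. TNFSF15 holds an AP-1 match at -120 and no NF-kappaB match in this window. Over 250 bases before the start, 8 of 9 tested chemokines with a promoter entry held the NF-kappaB letters, against 5.49% of 27305 promoters and 6.12% of the 9792 tested genes that matched. The AP-1 letters were in 6.57% of all promoters and 4.0% of tested genes. Among higher program genes, 108 of the 142 that stood in part had an entry, and 15 of them (13.9%) held the AP-1 letters and 15 (13.9%) the NF-kappaB letters. Of 565 matched genes among the 769 standing ones, 26 (4.6%) and 39 (6.9%) did. Among those that went further it was 10 (4.72%) and 23 (10.8%) of 212, among those that returned 7 (3.66%) and 9 (4.71%) of 191, among those that reversed 3 (13.6%) and 1 (4.55%) of 22, and among unresolved ones 6 (3.37%) and 15 (8.43%) of 178. These matches are a description of letters in the window and were not tested.

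Cytokines and growth factors split between genes that stood and genes that stood in part. Of 37 listed, 32 were tested. With shMETTL3 22 were higher and 6 lower than in control, with shControl 24 and 5, and in the direct comparison 2 were higher and 21 lower with shMETTL3. Their median log2 change was 1.86 with shMETTL3 and 3.45 with shControl. By fate, 16 stood in part, 6 stood, 2 went further, 2 returned, 2 reversed and 1 was unresolved.

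The interleukin 1 genes, which act at the head of the secretory cascade, kept a fraction of their rise. IL1B had 2 and 3 counts in control, 2161 and 2189 with shControl and 261 and 212 with shMETTL3. The ratio of shMETTL3 to control was 106 (exact 95% counting interval 45.2 to 329), and 9.32% of the rise was left. IL1A had 2 and 5, 214 and 216, and 67 and 88 counts, with 30% left. IL6, the central inflammatory cytokine of the SASP, had 7 and 17, 203 and 179, and 37 and 49 counts, and was 1.99 ± 0.35 above control with shMETTL3 (adjusted p = 4.18e-05) with 15.2% left. Its relative IL11 kept 9.37%. CSF3, which encodes granulocyte colony-stimulating factor, was at 0 in both control libraries, at 289 and 254 counts with shControl and at 36 and 17 with shMETTL3, at least 10.1-fold higher than control against a floor of 3 counts in each library. CSF2 was at least 4.64-fold higher on the same footing, with 9 and 16 counts against 73 and 78 with shControl. LIF returned, with 225 and 148 counts in control, 537 and 490 with shControl and 210 and 163 with shMETTL3 (log2 0.17 against control, adjusted p = 0.494).

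TNFSF15, a TNF family ligand, was the largest rise by the naming rule and one of the cytokines that stood. It had 16 and 5 counts in control, 1950 and 1819 with shControl and 1640 and 1822 with shMETTL3, and was 7.51 ± 0.25 above control (adjusted p = 3.13e-18) and -0.34 ± 0.15 from shControl (adjusted p = 0.107). STC1, a secreted glycoprotein that regulates calcium and phosphate, had 146 and 120, 3361 and 3125, and 2952 and 2900 counts, with log2 4.63 against control and -0.37 against shControl (adjusted p = 0.057). ANGPTL4, an inhibitor of lipoprotein lipase, had 7 and 9, 92 and 86, and 136 and 123 counts, with 4.16 and 0.32 (adjusted p = 0.217 against shControl). In all 3 the shMETTL3 and shControl libraries lay far above control. The EGF receptor ligand AREG was at 0 in control and at 25 and 14 counts with shMETTL3, at least 7.39-fold higher.

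Several growth factors of the EGF, TGF-beta and VEGF families stood in part. EREG, a ligand of the EGF receptor, had 71 and 90, 977 and 895, and 530 and 712 counts, with 53.7% left. INHBA, the activin A subunit, had 131 and 125, 1624 and 1586, and 1064 and 1309 counts, was 3.38 ± 0.15 above control (adjusted p = 1.37e-15) and kept 61.0%. BMP2 kept 59.1%, GDF15 62.0%, NRG1 62.2% and VEGFC 62.4%, and VEGFA 42.9%. The EGF receptor ligand HBEGF kept 29.8% and BMP6 11.1%. FGF2 kept only 18%, with 260 and 307, 1581 and 1536, and 464 and 606 counts. FGF7, a growth factor for epithelial cells, fell in senescence and went further with shMETTL3 (log2 -2.25 against -1.58 with shControl).

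The insulin-like growth factor binding proteins, which bind and modulate these hormones, took different directions. IGFBP7 went further, with 250 and 240 counts in control, 295 and 294 with shControl and 680 and 854 with shMETTL3. IGFBP3 rose with shControl and fell below control with shMETTL3, with 41 and 43, 92 and 76, and 19 and 17 counts (log2 -1.05 ± 0.30 against control, adjusted p = 0.00662). IGFBP5 did the same at a higher level, with 5152 and 4754, 6156 and 6215, and 3157 and 3074 counts (log2 -0.50, adjusted p = 0.00779), and its call was lost without control replicate 1.

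**Figure D2:**
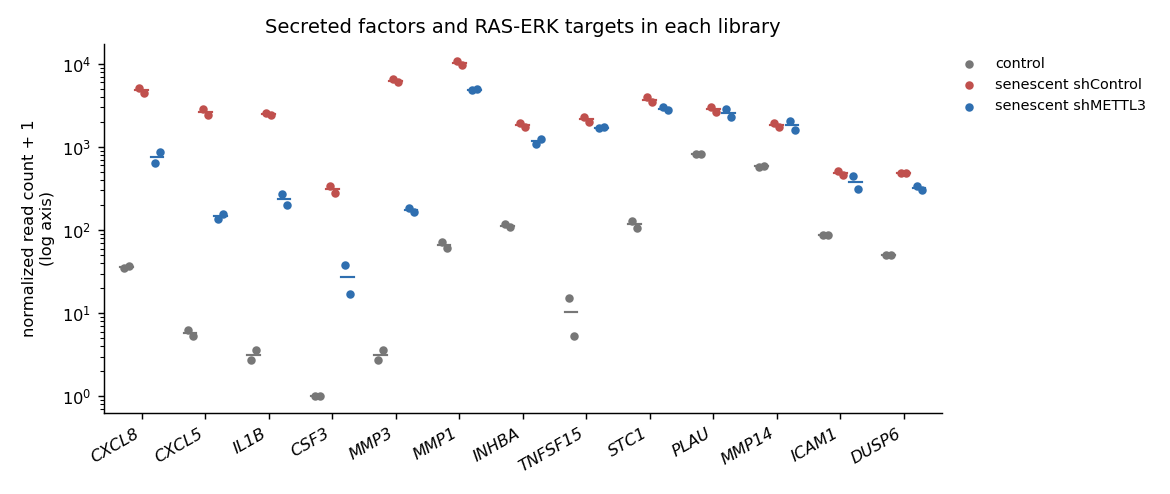
Normalized count plus 1 on a log axis for secretory genes, ICAM1 and the RAS-ERK target DUSP6 in control, senescent shControl and senescent shMETTL3 libraries, with 1 point per library and a bar at the mean of 2. CXCL8, CXCL5 and IL1B sit between control and shControl with shMETTL3, while TNFSF15 and STC1 sit close to shControl.

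Proteases and their inhibitors, which remodel the matrix around senescent cells, remained high as a group. Of 21 tested genes among 22, 17 were higher and 3 lower than control with shMETTL3, and 17 and 2 with shControl. Against shControl 12 were lower and 1, SERPINE2, was higher by edgeR and none by DESeq2, so its place as going further was lost there. Median log2 changes were 1.87 with shMETTL3 and 2.46 with shControl, and 9 stood in part, 7 stood, 2 went further and 1, MMP12, was placed as returned. On control and shMETTL3 libraries alone 19 of the 21 passed the filter, and MMP12, with no count in them, was tested only through other groups.

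The collagenase MMP1 had 80 and 68 counts in control, 9228 and 8617 with shControl and 4695 and 5266 with shMETTL3. It was 6.24 ± 0.18 above control (adjusted p = 1.19e-19) with 47.6% of its rise left, and it lies wholly inside WTAPP1, whose row shares its reads. The stromelysin MMP3 lost far more, with 2 and 3, 5581 and 5385, and 179 and 173 counts, a ratio to control of 79.1 (33.6 to 245) and 2.73% left. MMP10, a second stromelysin, was at 0 in control, 233 and 223 with shControl and 12 and 4 with shMETTL3, at least 3.06-fold above control, with 3.08% left. Macrophage elastase MMP12 was at 0 in control and in shMETTL3 libraries and at 39 and 28 with shControl. These 4 neighbors on chromosome 11 thus ranged from 47.6% of the rise left down to none detected at this depth.

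The list also held members that stood. MMP14, which is anchored in the plasma membrane, had 654 and 682, 1627 and 1559, and 2008 and 1688 counts, with a log2 change of 1.64 against control in both senescent groups and 0.00 ± 0.15 between them (adjusted p = 0.996). PLAU, the urokinase plasminogen activator, had 934 and 955, 2532 and 2395, and 2785 and 2450 counts and kept 88.1%. The cysteine protease CTSB rose by 1.51. By contrast the inhibitor SERPINB2 had 31 and 34, 1617 and 1498, and 246 and 261 counts and kept 12.6%, and TIMP1 had 318 and 330, 1607 and 1562, and 1195 and 893 counts and kept 49.0%. TIMP3, a matrix-bound inhibitor, stood on the lower side (log2 -1.77 with shMETTL3 and -1.56 with shControl).

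Members of the NF-kappaB list took several fates, and the regulators NFKB2, NFKBIZ, TNFAIP3 and TNIP1 stood. The call of NFKB2 was lost without control replicate 2 or shMETTL3 replicate 1. Among 20 tested NF-kappaB subunits, targets and C/EBP factors, 9 were higher and 5 lower than control with shMETTL3, 10 and 1 with shControl, and 1 higher and 4 lower than shControl. DESeq2 called 3 lower with shMETTL3 than in control and 1 lower than shControl. The medians were 0.69 with shMETTL3 and 0.84 with shControl, and 7 of the program genes stood. The p65 subunit RELA fell by 0.72 and the C/EBP factor CEBPD by 1.37, and both calls were lost in DESeq2 and without 1 or more libraries (control replicate 2 for CEBPD, control replicate 1 or shMETTL3 replicate 2 for RELA). TNFAIP3, the A20 feedback inhibitor of the pathway, had 26 and 40 counts in control, 126 and 132 with shControl and 124 and 200 with shMETTL3, and was 2.45 ± 0.23 above control (adjusted p = 1.8e-09) and 0.10 ± 0.19 from shControl. TNIP1, its binding partner, rose by 1.86 and NFKBIZ, a nuclear inhibitor of kappaB family member that activates a subset of targets, by 1.89, against 1.99 and 2.12 with shControl. NFKB1, which encodes the p105 precursor of p50, went further, with 172 and 169, 223 and 198, and 409 and 506 counts. The adhesion receptor ICAM1 had 98 and 98, 436 and 415, and 431 and 330 counts and stood, whereas VCAM1 had 102 and 80, 19 and 13, and 5 and 7 counts and fell further. PTGS2, the inducible cyclooxygenase, stood in part, with 13 and 24, 1434 and 1470, and 288 and 317 counts and 17.1% of the rise left. The NF-kappaB letters were found in 11 of 17 matched promoters of this list (64.7%).

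Among 10 tested AP-1 factors 3 were higher and 4 lower with shMETTL3 than in control, and 4 and 1 with shControl, beside 20.1% each way and 13.2% and 13.3% over all genes. DESeq2, and edgeR without control replicate 1, called 2 lower with shMETTL3. The median log2 change of 0.09 became -0.12 when libraries were scaled without ribosomal RNA. ATF3, a stress-induced member, was higher by 2.23 and FOSB by 1.56, while FOSL2 fell by 2.01. JUN had 210 and 234, 285 and 273, and 131 and 207 counts and returned (log2 -0.23, adjusted p = 0.277).

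Of 16 program genes among the feedback and target genes of RAS-ERK signaling, 10 stood. With the filter on control and shMETTL3 libraries alone 21 of the 24 tested members remained, with 12 higher and 2 lower, so 3 entered only through other groups. Of 24 tested genes, 15 were higher and 2 lower than control with shMETTL3, and 16 higher and 0 lower with shControl, where 1 was lower at an unadjusted p below 0.05 and 0 by DESeq2. Against shControl 4 were higher and 4 lower, and the median difference was -0.05. The other program genes were 2 that went further, 1 that stood in part, 2 that returned and 1 that reversed. DUSP4, a phosphatase that turns ERK off in the nucleus, had 2 and 1 counts in control, 57 and 40 with shControl and 70 and 56 with shMETTL3, a ratio of 47.2 to control (15.8 to 232). DUSP5, a related nuclear phosphatase, had 74 and 84, 314 and 305, and 327 and 291 counts. The cytoplasmic ERK phosphatase DUSP6 had 55 and 57, 416 and 435, and 330 and 318 counts and stood in part with 61.8% left. Among the Sprouty inhibitors of RAS signaling SPRY2 stood (log2 2.41 against 2.56 with shControl) and SPRY4 went further, with 113 and 95, 257 and 256, and 476 and 456 counts. CCND1, which encodes cyclin D1, returned, with 1383 and 1466, 1820 and 1838, and 1225 and 1332 counts (log2 0.01 against control, adjusted p = 0.953).

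**Figure D3:**
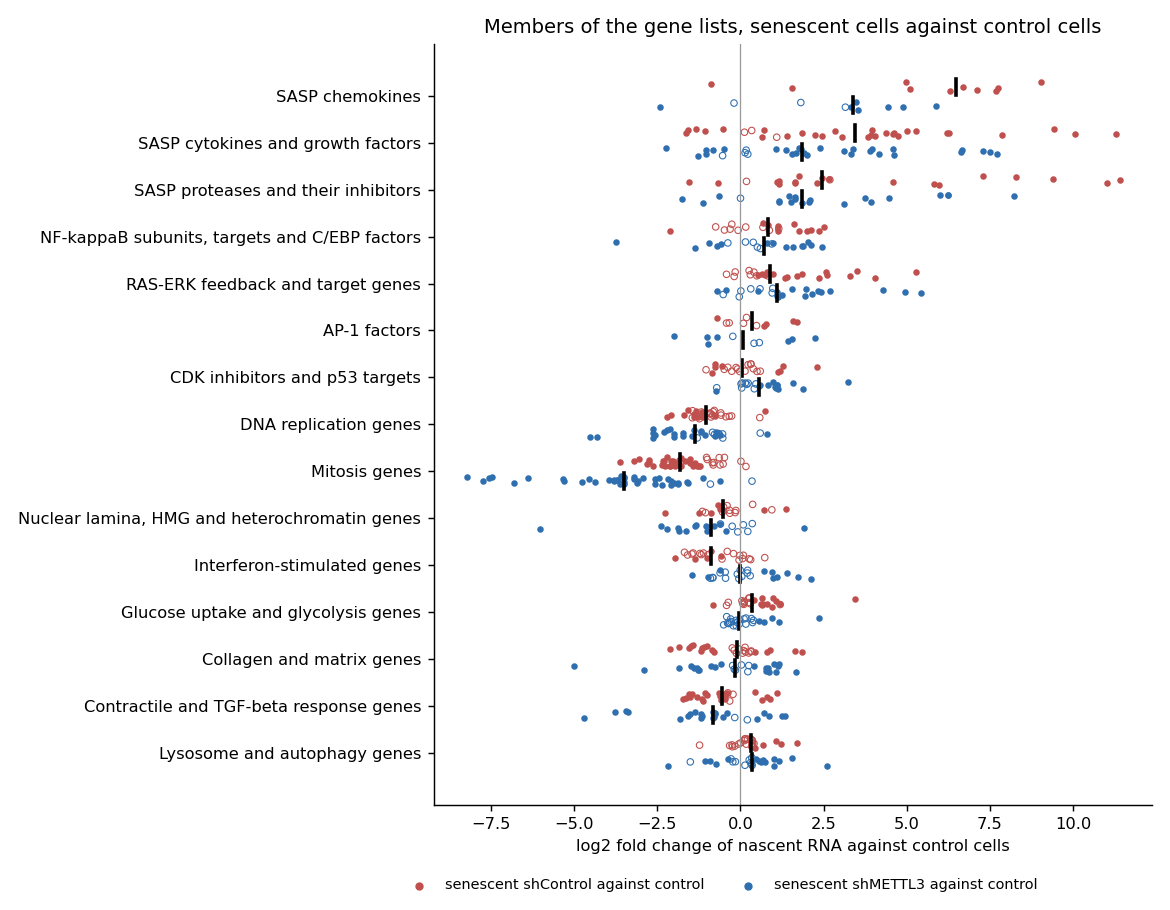
Log2 fold change against control of each tested member of the gene lists, in red for senescent shControl and in blue for senescent shMETTL3, filled where called and open where not, with a black bar at the median. The chemokine medians are 6.49 and 3.39, the mitosis medians -1.81 and -3.50. Some chemokines passed the filter only through groups other than control and shMETTL3.

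Mitosis genes fell with shMETTL3, and 19 of them fell below shControl by edgeR. Of 44 tested mitosis genes among 46, 42 were lower with shMETTL3 than in control and 0 higher, where 0 were higher at an unadjusted p below 0.05 and 0 by DESeq2. With shControl 33 were lower than in control. DESeq2 called 38 lower with shMETTL3 and 19 lower with shControl than in control, and 7 lower with shMETTL3 than with shControl. The median log2 change was -3.50 with shMETTL3 and -1.81 with shControl. Of the program genes 19 stood and 14 went further, and 9 more were called lower with shMETTL3 and not with shControl. The 2 mitosis genes not called were ECT2 (log2 0.35) and CCNF (log2 -0.91). With a filter of at least 10 counts in every library, which removes the genes that fell to 0, 3 were left as lower.

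MKI67, the standard mark of proliferating cells, had 224 and 201 counts in control, 25 and 53 with shControl and 1 and 0 with shMETTL3. Its ratio to control was 0.00264 (exact 95% counting interval 6.68e-05 to 0.0148). TOP2A, which untangles replicated DNA, had 164 and 145, 23 and 26, and 3 and 0 counts, a ratio of 0.0109 (0.00224 to 0.0322). The mitotic kinase CDK1 had 26 and 28, 1 and 5, and 0 and 0 counts and was at least 8-fold lower. CDC20, the activator of the anaphase-promoting complex, had 30 and 20, 8 and 3, and 0 and 0 counts, and BIRC5, the survivin subunit of the chromosomal passenger complex, 39 and 22, 7 and 9, and 0 and 0 counts. They were at least 7.42-fold and 9.06-fold lower. ASPM and TPX2, both spindle proteins, fell by 4.54 and 3.21, against 2.35 and 1.42 with shControl. Not every mitosis gene sank below shControl. CENPF, a kinetochore protein, had 208 and 223, 26 and 55, and 40 and 35 counts and stood (log2 -0.32 from shControl, adjusted p = 0.451), and CCNB1, or cyclin B1, had 49 and 44, 14 and 16, and 8 and 7 counts (log2 -1.20 from shControl, adjusted p = 0.0661).

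The windows before TOP2A and CDC20 are shown because promoters of mitosis genes often carry paired CCAAT boxes. They lie at chr17:40417897-40418046 on the minus strand and chr1:43358831-43358980 on the plus strand of GRCh38.p14, and capitals mark CCAAT or its reverse ATTGG.
TOP2A: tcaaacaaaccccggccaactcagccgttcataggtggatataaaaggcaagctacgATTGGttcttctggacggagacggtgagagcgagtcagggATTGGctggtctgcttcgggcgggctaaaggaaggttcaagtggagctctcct
CDC20: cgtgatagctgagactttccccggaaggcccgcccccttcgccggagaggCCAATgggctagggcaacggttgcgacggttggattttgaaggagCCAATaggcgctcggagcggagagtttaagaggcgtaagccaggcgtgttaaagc
Both windows hold a pair, at -93 and -53 in TOP2A and at -100 and -55 in CDC20. Over 250 bases, CCAAT on either strand was in 26 of 38 matched mitosis promoters (68.4%) and in 16 of 26 replication promoters (61.5%), against 33.0% of all promoters and 35.1% of tested genes. TTTNGCGC, the E2F letters, was in 2 of the mitosis promoters (5.26%) and 6 of the replication promoters (23.1%), against 1.51% of all promoters and 2.26% of tested genes.

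**Figure D4:**
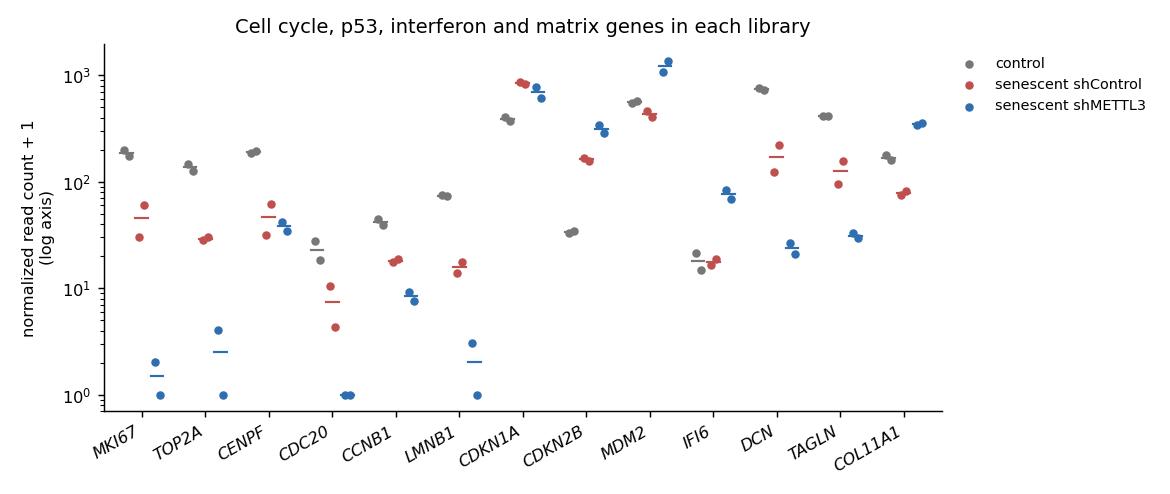
Normalized count plus 1 on a log axis for cell cycle, lamin, kinase inhibitor, p53 target, interferon and matrix genes in control, senescent shControl and senescent shMETTL3 libraries, with 1 point per library and a bar at the mean of 2. MKI67 falls to 1 and 0 counts with shMETTL3, while CDKN2B and MDM2 lie above both other groups.

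Many DNA replication genes fell as well, by edgeR. Of 30 tested genes among 39, 21 were lower and 1 higher with shMETTL3 than in control, against 11 and 1 with shControl. The median log2 change was -1.36 and -1.03. In the direct comparison 4 were lower and 0 higher, with 0 higher at an unadjusted p below 0.05 and 0 by DESeq2. DESeq2 called 12 lower with shMETTL3 and 5 with shControl than in control, and 2 lower in the direct comparison, and edgeR called 14 lower with shMETTL3 without control replicate 1. Both subunits of ribonucleotide reductase, the enzyme that supplies deoxynucleotides, went further. RRM2, the small subunit, had 73 and 67, 9 and 14, and 6 and 0 counts (log2 -4.32, adjusted p = 1.64e-07), and RRM1, the large subunit, had 95 and 103, 29 and 40, and 14 and 14 counts (log2 -2.64). UHRF1, which maintains DNA methylation through replication, fell by 2.21.

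Lamin genes fell further. Of 20 tested lamina, HMG and heterochromatin genes 13 were lower and 1 higher with shMETTL3 than in control, against 7 and 2 with shControl, where DESeq2 called 4 lower. LMNB1, the lamin B1 gene whose loss marks senescence, had 83 and 83 counts in control, 11 and 15 with shControl and 2 and 0 with shMETTL3, a ratio to control of 0.0135 (0.00163 to 0.0497). LMNA had 704 and 685, 317 and 388, and 213 and 184 counts and fell by 1.63 against 0.60 with shControl, and LMNB2 fell by 2.20. HMGA2, an architectural protein of senescent chromatin, was the one that rose, with 2192 and 2344, 4539 and 4482, and 6875 and 8476 counts (log2 1.92 with shMETTL3 and 1.38 with shControl).

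Among cyclin-dependent kinase inhibitors and p53 targets, CDKN1A stood, CDKN2B went further and several p53 targets rose beyond the program. Of 22 tested genes in this list 12 were higher and 1 lower with shMETTL3 than in control, while with shControl 4 were higher and 4 lower. Against shControl 11 were higher and 0 lower, with 0 lower at an unadjusted p below 0.05 and 0 by DESeq2, which called 7 higher there and 1 lower with shControl than in control. Their median log2 change was 0.57 with shMETTL3 and 0.06 with shControl.

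CDKN1A, which encodes p21, had 459 and 426 counts in control, 726 and 744 with shControl and 762 and 642 with shMETTL3. It was 0.84 ± 0.15 above control (adjusted p = 4.21e-05) and -0.28 ± 0.14 from shControl (adjusted p = 0.169). CDKN2B, which encodes p15, had 36 and 38, 141 and 141, and 328 and 298 counts and went further (log2 3.25 ± 0.20, adjusted p = 5.59e-13), though it lies wholly inside CDKN2B-AS1 and shares its reads. CDKN2A, the source of p16 and ARF, was not called in either group (log2 0.41 with shMETTL3, adjusted p = 0.222, and 0.50 with shControl, adjusted p = 0.182). MDM2, the ubiquitin ligase that p53 induces against itself, had 616 and 658, 386 and 362, and 1054 and 1441 counts. It was 1.13 ± 0.14 above control (adjusted p = 2.54e-07) and 1.51 ± 0.14 above shControl (adjusted p = 1.76e-08). TP53INP1, a p53 target in apoptosis and autophagy, reversed, with 120 and 162, 71 and 76, and 233 and 259 counts. RRM2B, the p53-inducible ribonucleotide reductase subunit, went further (log2 1.88 against 1.19). TIGAR, which lowers glycolytic flux, was higher than control by 1.04 with shMETTL3 and had 0.32 with shControl (adjusted p = 0.248). PLK2 fell with shControl and returned, with 327 and 334, 127 and 155, and 275 and 378 counts.

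Interferon-stimulated genes, which cells use against viruses, were called both ways against control and only upward against shControl. Of 23 tested among 38, 7 were higher and 3 lower with shMETTL3 than in control, against 20.1% each way over all genes, and 0 higher and 5 lower with shControl, where 1 was higher at an unadjusted p below 0.05 and 0 by DESeq2. Against shControl 7 were higher and 0 lower, against 12.3% and 11.1% over all genes, with 1 lower at an unadjusted p below 0.05 and 0 by DESeq2. DESeq2 called 5 higher than shControl. It called 1 lower with shMETTL3 and 3 lower with shControl than in control, and edgeR called 4 higher with shMETTL3 without control replicate 2. The 3 lower ones became 1 without control replicate 1 and 5 without shMETTL3 replicate 1. IFI6, an inhibitor of apoptosis and viral replication, had 23 and 16 counts in control, 13 and 16 with shControl and 80 and 72 with shMETTL3, and was 2.12 ± 0.29 above control (adjusted p = 1.12e-06) and 2.17 above shControl. DDX60, a helicase of the RNA-sensing pathway, had 37 and 37, 18 and 25, and 82 and 140 counts (log2 1.74). The DNA sensor IFI16 rose by 0.97, the RNA sensor DDX58 by 0.72 and the transcription factor IRF1 by 0.94. OAS3, a 2'-5'-oligoadenylate synthetase, moved the other way, at log2 -1.46 with shMETTL3 and -1.97 with shControl. The calls of IRF1 were lost without control replicate 2 or shMETTL3 replicate 1, and that of OAS3 without control replicate 1 and in DESeq2. The median of the list against control was -0.01 and changed sign under other scalings.

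Of 24 tested genes of glucose uptake and glycolysis, 9 were lower and 1 was higher with shMETTL3 than with shControl by edgeR, and 7 and 0 by DESeq2. Against control 5 were higher (against 20.1% over all genes) and 0 lower with shMETTL3, where 1 was lower at an unadjusted p below 0.05 and 0 by DESeq2, and 11 were higher and 1 lower with shControl. Scaled by counts outside ribosomal RNA the shMETTL3 numbers were 3 and 5, without control replicate 1 there were 3 higher, and without shMETTL3 replicate 1 there were 4 higher and 5 lower. HK2, the inducible hexokinase that starts glycolysis, had 71 and 62 counts in control, 617 and 500 with shControl and 304 and 299 with shMETTL3. It was 2.35 ± 0.18 above control (adjusted p = 2.44e-11) and 1.11 below shControl on the log2 scale, at -1.11 ± 0.14 (adjusted p = 2.09e-06), with 41.0% of the rise left. ENO2, the neuronal form of enolase, returned, with 33 and 31, 60 and 51, and 22 and 18 counts. GAPDH returned too (log2 -0.21 against control, adjusted p = 0.26), and 6 members did so in all, but GAPDH was called lower than control without shMETTL3 replicate 1 and under scaling without ribosomal RNA. PGK1, phosphoglycerate kinase, stood at log2 0.71, and SLC2A3, a glucose transporter, went further by edgeR and not by DESeq2, with 91 and 90, 86 and 129, and 152 and 212 counts.

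Collagen and matrix genes moved both ways. Of 27 tested, 10 were higher and 11 lower with shMETTL3 than in control, against 5 and 11 with shControl. COL1A1, the main collagen of these cells, had 9746 and 8732 counts in control, 2099 and 2960 with shControl and 3798 and 2972 with shMETTL3, a fall of 1.27 ± 0.16 on the log2 scale that stood (adjusted p = 4.47e-07). COL3A1 fell by 1.84. DCN, the collagen-binding proteoglycan decorin, had 855 and 831, 103 and 197, and 25 and 21 counts and fell further (log2 -5.02 against -2.11). COL11A1, a minor fibrillar collagen, reversed, with 198 and 183, 63 and 73, and 332 and 374 counts. The genes COL4A1, FN1 and POSTN, for basement membrane collagen, fibronectin and periostin, were higher with shMETTL3 by 1.15, 0.77 and 0.82 and were not called with shControl.

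Contractile genes, which mark the myofibroblast state, were counted in a joint list with TGF-beta response genes, and most of its members remained low. Of 26 tested contractile and TGF-beta response genes 19 were lower and 5 higher with shMETTL3, against 17 and 5 with shControl, and 14 stood and 7 went further. Without shMETTL3 replicate 1, 3 were higher. TAGLN, an actin-binding protein of smooth muscle, had 470 and 472, 79 and 140, and 31 and 30 counts (log2 -3.78 against -1.72). LMOD1, which nucleates actin filaments, fell by 4.69. ACTA2, smooth muscle actin, had 256 and 298, 86 and 127, and 131 and 154 counts and stood at log2 -0.79.

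Of 25 lysosome and autophagy genes 10 were higher and 5 lower with shMETTL3 than in control, against 20.1% each way over all genes, and 5 were higher and 0 lower with shControl, where 1 was lower at an unadjusted p below 0.05 and 0 by DESeq2. DESeq2 called 2 lower with shMETTL3, as edgeR did without control replicate 1 or shMETTL3 replicate 2. The cholesterol exporter NPC1 had 69 and 74, 164 and 196, and 404 and 363 counts and went further. GLB1, the source of senescence-associated beta-galactosidase activity, had 147 and 139, 146 and 136, and 159 and 146 counts (log2 0.26, adjusted p = 0.212).

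The study's 38 genes that rose in senescence and fell with both knockdowns were chosen on these samples, so their direction is not independent evidence. Against control, 27 of the 38 were still higher with shMETTL3 and 3 were lower. Of the 38, 28 passed the filter on control and shMETTL3 libraries alone, with 22 higher and 3 lower, and the other 10 were tested only through groups where they were high, so a return among them, as for MMP12 at 0 in both groups, was set by the filter. By fate, 27 stood in part, 8 were placed as returned and 3 reversed, and the median log2 change against control was 2.31 with shMETTL3 and 4.75 with shControl. The 3 that reversed were LRRC15, a membrane protein of activated fibroblasts, the phosphodiesterase PDE3A and ITPRIPL2. LRRC15 had 23 and 28, 69 and 65, and 5 and 6 counts. The call of PDE3A against control was lost in DESeq2 and without control replicate 2 or shMETTL3 replicate 1.

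Several of the largest rises lay outside the secretory lists and stood. NTNG1, a netrin family guidance protein, had 6 and 11 counts in control, 333 and 291 with shControl and 338 and 416 with shMETTL3. GABRA2, a subunit of the GABA receptor, had 9 and 15, 423 and 476, and 419 and 509 counts. They were 5.61 and 5.42 above control on the log2 scale. SP140, a chromatin reader of immune cells, went further, with 6 and 9, 25 and 33, and 190 and 263 counts. Among highly counted genes the hyaluronan receptor CD44 had 3102 and 3143, 4688 and 4773, and 5860 and 6127 counts, and WLS, which carries Wnt proteins to the surface, 832 and 777, 4064 and 3791, and 4775 and 5003. Both stood. The 10 largest falls by the naming rule, led by MKI67, all went further than in shControl cells. CEMIP, which breaks down hyaluronan, had 865 and 868, 218 and 282, and 25 and 17 counts (log2 -5.19 against -1.41).

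A part of the difference from control was not in the senescence program. Of the 2579 higher genes 788 (30.6%) were not called with shControl and were also higher than shControl, with a median log2 change of 0.91 against control. Of the 2583 lower genes 531 (20.6%) were their counterpart, with a median of -1.09. Over the alternatives these numbers ran from 301 to 1560 higher and 89 to 907 lower, with 1560 and 89 for library size alone and 962 and 907 without shMETTL3 replicate 1. A further 556 and 820 genes were called against control without being shown to differ from shControl. CDH13, an atypical cadherin of the vascular wall, had 825 and 834 counts in control, 755 and 764 with shControl and 3414 and 3746 with shMETTL3 (log2 2.28 ± 0.15, adjusted p = 1.27e-12). INSC, which orients the spindle, had 72 and 93, 81 and 70, and 499 and 486 counts, and the G protein regulator RGS17 396 and 447, 414 and 436, and 1614 and 2111. EPHA4, an ephrin receptor, had 244 and 243, 160 and 174, and 825 and 877 counts. On the lower side RRBP1, a ribosome-binding protein of the endoplasmic reticulum, had 946 and 946, 703 and 687, and 151 and 158 counts (log2 -2.45), and CALM3, a calmodulin gene, 213 and 176, 104 and 129, and 19 and 22 (log2 -3.07). In each of these the shMETTL3 libraries lay apart from all 4 others. SLCO5A1 is different, with 349 and 6693 counts in the shMETTL3 libraries, and its log2 change of 2.95 became -0.28 without replicate 2.

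Gene length moved with the result. With the tested genes ranked by length in 5 equal bins, the median log2 change of shMETTL3 against control ran from -0.18 in the shortest to 0.20 in the longest, and that of shControl against control from 0.08 to -0.13. In shMETTL3 against shControl, a comparison the fates rest on, the median ran from -0.30 to 0.29. There 3.90% of the shortest and 32.75% of the longest genes were called higher, and 14.78% and 7.29% lower. Between the shMETTL3 replicates, the log2 ratio of replicate 2 to replicate 1 ran from -0.16 to 0.15 over the same 5 bins. Higher genes that went further had a median length of 108 kb and those that returned 20.4 kb, against 40.0 kb for those that stood. On the lower side those that returned had a median of 141 kb and those that reversed 225 kb, against 59.8 kb for those that stood. Outside the program, the 788 higher genes that also differed from shControl had a median of 108 kb and their 531 lower counterparts 21.1 kb. With an offset for gene length, chosen after the data were seen, 73.3% of higher and 74.7% of lower program genes went the same way, and 134 lower genes returned in place of 203.

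**Figure D5:**
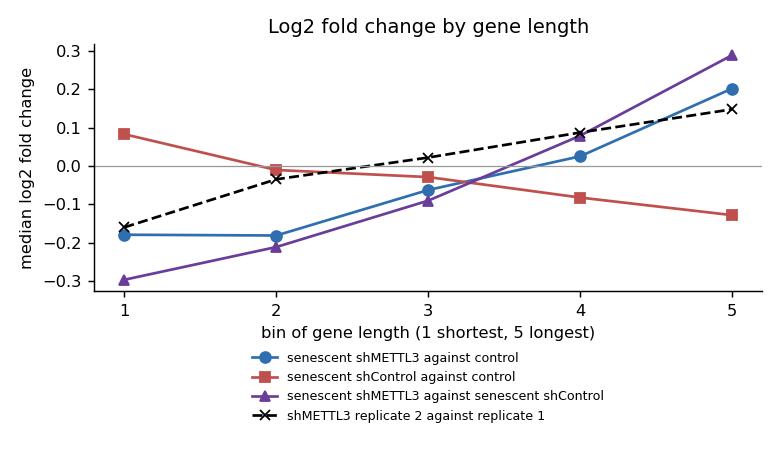
Median log2 fold change in 5 bins of gene length, from shortest to longest, for the comparisons among control, senescent shControl and senescent shMETTL3 and for the ratio of the shMETTL3 replicates. The shMETTL3 line against control rises from -0.18 to 0.20 and the replicate ratio from -0.16 to 0.15.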

How the data were processed

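fastGRO-seq gave 8 libraries, 2 each of control, senescent shControl, shMETTL3 and shMETTL14 cells. The authors aligned reads to hg19 and deposited raw HOMER counts over whole gene bodies, not normalized, with a column per replicate. Columns of per-sample values left unused numbered 0. Of 27945 rows, 6423 had no count. Genes were kept by filterByExpr (minimum count 10), scaled by TMM and fitted over all 8 libraries in 4 groups with edgeR 4.0.16 in R 4.3.3. Adjusted p-values are Benjamini-Hochberg values over 12844 genes, called below 0.05, and SE is the log2 change over the root of F. Normalized counts are counts times TMM scales. Percent left is the shMETTL3 minus control mean over the shControl minus control mean. Counting intervals are exact at 95% and, like floors, cover counting error only. Where no library of a group exceeded 3 counts, the ratio or bound replaces the fitted change. The source of the replicates is not given in the labels. For senescent against proliferating cells the paper gives 2 biologically independent experiments. It does not say so for the knockdown libraries, so p-values there may measure technical spread. Without the spike-in, which was not used here, a shift common to all genes would go unseen.

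The fits were tested on simulated data drawn with the same spread in every group. The shMETTL3 libraries were more variable than the others, so that test gives no error rates for them. Alternatives were DESeq2 1.42.0, other scalings, filters, thresholds and sample sets, a replicate block, each library left out, and an offset for gene length (lowess span 0.3, added after seeing the data).

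Members and lists were chosen with earlier results of these data known. Named by rule were METTL3 and METTL14, the 10 largest rises and falls with a mean of at least 100 counts and no overlap, in each list the 3 called members with the largest change and the 2 highest uncalled ones, in each fate class the 5 with the highest counts, and the 5 largest changes outside the program. Other genes named were chosen after their values were seen. Some genes covered by these rules are not reported here. Promoters came from RefSeq (GRCh38.p14), the most upstream start per gene.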

Additional observations from a re-analysis of the deposited data

Results flagged for a closer look

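Genes called in opposite directions against control in senescent shControl and senescent shMETTL3 cells drew attention, because the difference between the groups was itself past the threshold. There were 25 genes that rose with shControl and fell with shMETTL3, and 45 that fell with shControl and rose with shMETTL3. Over the alternatives these numbers ran from 2 to 51 and from 2 to 433, with 11 and 19 by DESeq2, 10 and 17 without control replicate 1, 6 and 13 without control replicate 2, 11 and 20 without shControl replicate 1, 18 and 27 without shControl replicate 2, 51 and 83 without shMETTL3 replicate 1, 35 and 42 without shMETTL3 replicate 2, and 433 of the second kind with library size alone. Among those with the highest counts, the difference of shMETTL3 from shControl on the log2 scale was -1.20 for IGFBP5, -1.05 for the collagen VI chain COL6A2, -0.986 for the chaperone CANX, -1.08 for PHLDA1 and -1.16 for HMGA1. In the other direction it was 1.38 for SGIP1, 0.917 for STARD13, 1.05 for PVT1, 1.76 for MAGI1 and 1.30 for MCC. The call of HMGA1 against control (log2 -0.44, adjusted p = 0.0394) was lost under 12 other settings. That of CANX was lost under 9 settings, among them DESeq2 and the omission of control replicate 1, control replicate 2 or shMETTL3 replicate 1. The call of PHLDA1 was lost with library size alone, with the length offset and without control replicate 2, that of IGFBP5 without control replicate 1, that of SGIP1 in DESeq2 and without control replicate 1, and that of STARD13 with the length offset. The first 25 had a median length of 11.3 kb and the other 45 of 225 kb, and the part of length in these results was not tested.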

How the results depend on the processing

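Of the main counts recomputed under other settings, 179 stayed within 1.5 times the reported count and 49 did not. Of the counts by fate and by list, 860 stayed and 166 did not. A log2 change of at least 1 left 1339 higher and 1592 lower genes for shMETTL3 against control, 885 and 915 for shControl against control, 595 and 688 for shMETTL3 against shControl, 644 and 680 program genes going the same way, and 79 and 58 returned. DESeq2 gave 1586 lower genes for shMETTL3 and 908 for shControl against control, 971 higher and 711 lower for shMETTL3 against shControl, 606 lower genes going the same way, and 99 and 111 returned. Scaling by library size alone, ribosomal RNA included, gave 752 and 5015 for shControl against control, 5287 and 342 for shMETTL3 against shControl, 669 higher genes going the same way, and 29 and 1855 returned, and the share going the same way was then 89% of higher and 34.1% of lower genes. An adjusted p below 0.01 left 1045 lower genes for shControl, 964 and 772 for shMETTL3 against shControl, 746 lower genes going the same way, and 121 and 107 returned. The length offset left 134 lower genes as returned. In the main fit 123 list members were higher and 135 lower with shMETTL3 than in control, beside 20.1% each way over all genes tested. A minimum of 10 counts in every library left 72 list members lower with shMETTL3, since it removes genes near 0 in any group. It left 1 chemokine, 10 cytokines and growth factors and 10 of the study's 38 genes as higher, and 7 replication genes as lower.

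With each library left out in turn, shMETTL3 against control ranged from 1929 to 2897 higher and 1834 to 3078 lower, shControl against control from 1066 to 2130 and 763 to 2145, and shMETTL3 against shControl from 769 to 1932 and 707 to 2044. Program genes going the same way ranged from 827 to 1328 higher and 606 to 1401 lower, those returned from 101 to 365 and 64 to 239, and list members called from 112 to 129 higher and 111 to 142 lower. Leaving out shControl replicate 1 gave 1066 higher and 763 lower genes for shControl against control, and leaving out shControl replicate 2 gave 1092 lower genes. Leaving out control replicate 1 gave 994 lower genes, and control replicate 2 1092. These fits have fewer samples, and otherwise the cause was not tested.

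The replicate numbers were not shown to pair the samples, with correlations of deviations from -0.061 to 0.268 between groups. With the replicate block 2591 genes were higher and 2577 lower for shMETTL3 against control, 1715 and 1673 for shControl, and 1564 and 1429 for shMETTL3 against shControl. Of the named genes' values under other settings, 4792 kept direction and side of the threshold, 133 lost the call, 55 gained one and 2 reversed. SNORA86 became -0.78 with the length offset, and SLCO5A1 -0.28 without shMETTL3 replicate 2 and 3.87 without replicate 1.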
